A study of Mus musculus with 25 samples.

Results

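The genes described are Myc and its relatives Mycn, Max, Mxd1, Mxd3, Mxd4, Mxi1 and Mnt, which form the Myc and Max network of transcription factors, together with Odc1, a well known transcriptional target of Myc. These 9 genes were chosen by name. Where several probe sets name a gene, the one whose mean across the 25 arrays is highest was followed, among 22 probe sets that name 1 of the 9 genes and out of 18161 genes measured in all.

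RNA came from 3 immortalized lines of mouse embryonic fibroblasts. Tsc1 and Tsc2 code for hamartin and tuberin, the TSC complex that restrains the growth-promoting kinase complex mTORC1. The Tsc1-null line (Tsc1-/-) is p53+/+ and was immortalized through 3T3 passaging. The Tsc2-null line (Tsc2-/- p53-/-) and the wild-type line (Tsc2+/+ p53-/-) lacked p53 and were derived from littermates. All plates, 10 cm wide and at 70% confluence, were serum starved for 24 h, so every level below is that of starved cells. Each null line received 20 nM rapamycin, an inhibitor of mTORC1, for 2, 6, 12 or 24 h (2 arrays per time), or vehicle (DMSO, 3 arrays). The wild-type line received vehicle (3 arrays); wild-type cells under rapamycin were not analysed here. Each genotype was 1 line and replicates were plates of that line, which the labels call biological replicates. The p-values therefore reflect variation among plates, not among independently derived lines. Wherever the Tsc1-null line is set against another line, the loss of Tsc1, the state of p53 and the way of immortalization cannot be told apart.

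Myc and Mycn proteins bind DNA as pairs with Max and switch on genes of growth, ribosome production and metabolism. Mxd1, Mxd3, Mxd4, Mxi1 and Mnt also pair with Max, occupy the same short DNA element, the E-box CACGTG, and recruit Sin3 and histone deacetylases to repress. Odc1 encodes ornithine decarboxylase, which makes putrescine, the first polyamine, and is an early gene of the growth factor response in fibroblasts. The network is known for balancing growth against rest and differentiation, and the Myc messenger RNA is short lived.

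Levels are RMA values on the log2 scale, where a difference of 1 is a doubling of the linear value, and they are compared between arrays for 1 probe set only, not between genes. A gene was called changed when the adjusted p of limma's moderated test, by Benjamini-Hochberg over all 18161 genes, was under 0.05. Array medians lay between 6.26 and 6.41, and replicate arrays correlated at 0.996 to 0.998. Precision is limited by how few arrays each group holds. The deleted genes were lower in their own lines: the Tsc1 probe set had a median of 6.96 in Tsc1-null arrays against 8.15 in wild-type arrays, and the Tsc2 probe set 8.97 (range 7.85 to 9.59) in Tsc2-null arrays against 9.69 in wild-type arrays, with no overlap of either pair. The position of these probe sets relative to the deletions was not analysed here, so they check the labels only in part. Of 11 fibroblast genes, Col1a1 and Vim lay between 12.61 and 13.66 and between 13.55 and 14.01 over the 25 arrays. The macrophage markers Ptprc, Adgre1, Cd68 and Csf1r lay at 3.76 to 4.21, 5.07 to 5.87, 6.12 to 7.58 and 7.77 to 8.54, and the endothelial markers Tek, Pecam1, Cdh5 and Kdr at 4.15 to 4.63, 4.75 to 5.30, 5.02 to 5.61 and 7.43 to 8.73. The fibroblast surface gene Thy1 was lower in both null lines under vehicle, at 7.64 in Tsc1-null and 6.83 in Tsc2-null cells against 10.79 in wild-type cells. Pdgfrb (11.43 and 9.84 against 12.31) and S100a4 (13.45 and 12.04 against 13.96) were lower too. P4hb (13.61 and 13.85 against 13.06) and Fn1 (13.62 and 13.39 against 13.35) were higher. Col1a2 was lower in both (13.95 and 13.98 against 14.43). Dcn (12.68 and 13.85 against 13.60) and Col3a1 (13.47 and 14.03 against 13.61) lay on opposite sides of wild type in the null lines. So did Pdgfra (11.87 and 11.05 against 11.32). The epithelial genes Krt19 and Cdh1 averaged 12.14 and 8.04 in Tsc2-null vehicle arrays against 5.62 and 3.85 in wild-type arrays, while Krt18 averaged 7.70 against 9.30, Krt8 7.08 against 7.17 and Epcam 8.69 against 9.07. Of the 4 neural markers, Sox2 averaged 6.23 in Tsc1-null against 3.34 in wild-type vehicle arrays, Gfap 6.39 against 6.28, Nes 8.41 against 9.85 and Tubb3 6.47 against 8.17. Of the 2 adipocyte markers, Fabp4 averaged 8.46 in Tsc1-null against 5.32 in wild-type vehicle arrays and Adipoq 3.96 against 3.94. The part of these line differences in the results below was not tested. In RNA from whole plates, fewer cells expressing a gene and less RNA per cell cannot be told apart.

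Short windows of DNA around starts of the members were searched for the network's own element. RefSeq promoter windows (GRCm38.p6), each of 250 bases before to 50 after a gene start, were matched for 8 of the 9 genes, in 10 windows. The gene without a window was Myc, and Mxi1 had several windows. DNA outside the windows was not searched. The E-box CACGTG, searched on both strands, was found in 3 of the 10 windows, against 7.15% of 32851 windows of all genes. The 4 windows below are shown because they hold CACGTG or the related element CACGCG, and the capitals mark those letters. CACGCG or its reverse complement was found in 1 of the 10 windows, that of Odc1, against 9.27% of all windows.
Mxd4: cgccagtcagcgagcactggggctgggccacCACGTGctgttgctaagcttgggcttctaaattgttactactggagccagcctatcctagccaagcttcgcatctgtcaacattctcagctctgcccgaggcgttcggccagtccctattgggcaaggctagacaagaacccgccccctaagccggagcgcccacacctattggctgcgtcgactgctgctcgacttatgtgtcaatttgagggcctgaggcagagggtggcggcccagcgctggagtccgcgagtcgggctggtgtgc
Mnt: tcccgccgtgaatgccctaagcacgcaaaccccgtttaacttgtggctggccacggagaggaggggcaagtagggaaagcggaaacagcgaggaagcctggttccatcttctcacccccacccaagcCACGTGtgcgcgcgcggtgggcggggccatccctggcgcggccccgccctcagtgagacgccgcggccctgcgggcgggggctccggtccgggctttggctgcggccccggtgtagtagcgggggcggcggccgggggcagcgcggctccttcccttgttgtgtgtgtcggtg
Max: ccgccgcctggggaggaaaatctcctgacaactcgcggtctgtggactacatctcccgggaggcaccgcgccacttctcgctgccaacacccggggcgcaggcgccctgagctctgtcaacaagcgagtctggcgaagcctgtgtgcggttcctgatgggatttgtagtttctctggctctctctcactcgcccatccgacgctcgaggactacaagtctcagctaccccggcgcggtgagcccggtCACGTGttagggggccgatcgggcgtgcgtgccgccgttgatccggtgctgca
Odc1: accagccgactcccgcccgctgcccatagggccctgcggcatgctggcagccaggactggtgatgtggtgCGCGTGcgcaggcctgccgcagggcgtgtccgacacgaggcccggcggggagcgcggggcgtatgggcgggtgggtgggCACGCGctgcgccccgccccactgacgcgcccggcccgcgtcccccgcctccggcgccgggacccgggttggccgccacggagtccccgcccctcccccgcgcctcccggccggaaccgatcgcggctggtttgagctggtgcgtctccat
The Mxd4 window is chr5:34187661-34187960 on the minus strand, with the element beginning 219 bases before the start. The Mnt window is chr11:74830674-74830973 on the plus strand, with the element 123 bases before. The Max window is chr12:76962199-76962498 on the minus strand, with an element that begins 3 bases before the window's start site and so spans that site. The Odc1 window is chr12:17544623-17544922 on the plus strand, with the 2 related elements 180 and 101 bases before the start, the first read on the opposite strand. All distances are counted from the start site on which each window was built. For Mnt, Max and Odc1 that site lies inside the gene coordinates given below, not at their end. These matches describe letters in a window and are not measurements of binding.

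Starved TSC-deficient cells held less Myc messenger RNA than starved wild-type cells, and rapamycin raised it in both null lines within 2 h. Odc1 was low in both null lines as well. Its called rises came later, at 24 h in Tsc1-null cells and at 12 and 24 h in Tsc2-null cells. Mnt rose with Myc at 2 h. Among the repressor genes, Mxd4 rose in Tsc2-null cells at 6 h and stayed up to 24 h, while Mxd3 fell there at 24 h. Against wild type under vehicle, 6 of the 9 genes were called in Tsc1-null cells (42.1% of all genes were called) and 6 in Tsc2-null cells (45% of all genes). Of the 8 genes called between the null lines under vehicle (43.4% of all genes), 3 were higher (20.7% of all genes) and 5 lower (22.7%) in the Tsc1-null line.

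**Figure D1:**
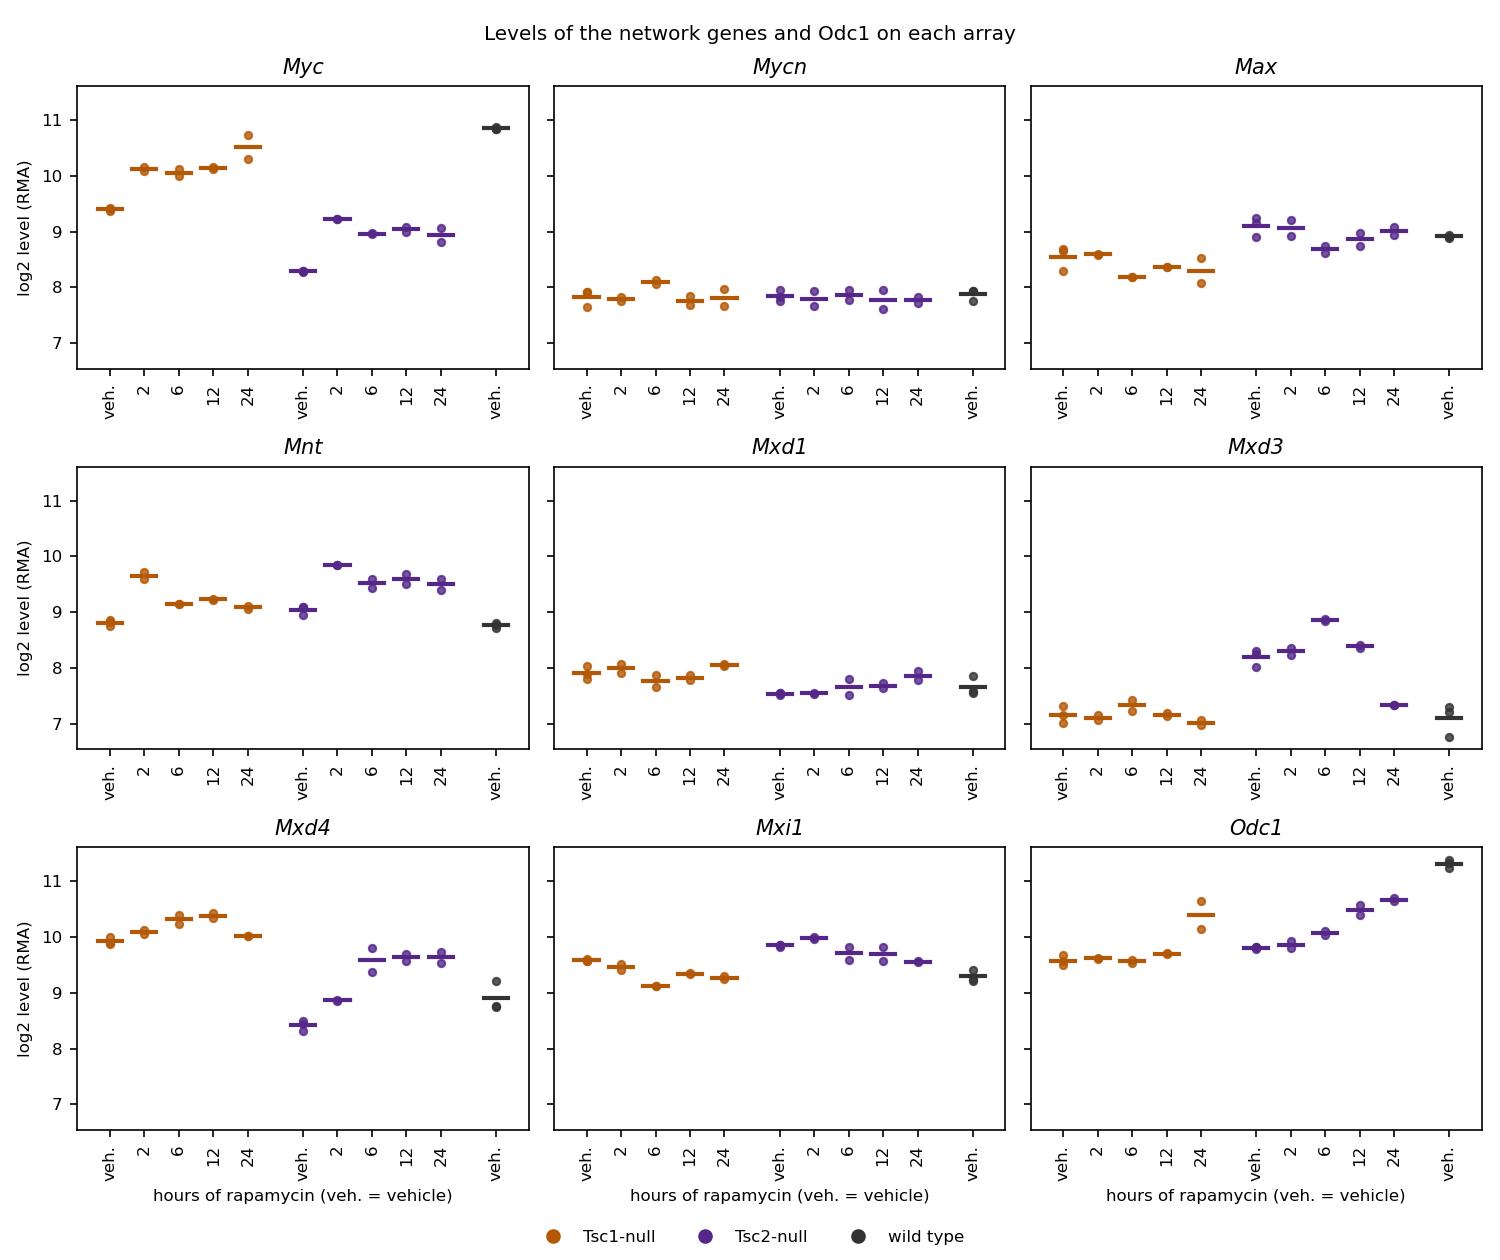
Log2 level (RMA) of each of the 9 genes on every array, by hours of rapamycin in Tsc1-null and Tsc2-null cells and under vehicle in wild-type cells; points are arrays and bars are group means. Myc and Odc1 were highest in the wild-type arrays, at 10.84 to 10.88 and 11.23 to 11.38, and the Mycn probe set shown lay between 7.61 and 8.14 throughout.

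Myc (Entrez 17869, chr15:61985341-61990361 in GRCm38.p6, probe set 1424942_a_at) encodes the central activator of the network. Under vehicle it read 9.37, 9.43 and 9.40 in Tsc1-null cells, 8.30, 8.27 and 8.29 in Tsc2-null cells, and 10.84, 10.84 and 10.88 in wild-type cells. The 3 lines did not overlap, and the replicates of each line lay close together. Tsc1-null cells were lower than wild type by a log2 difference of -1.45 (SE 0.08, limma adjusted p = 1.52e-12), which is 2.74-fold. Tsc2-null cells were lower by -2.56 (SE 0.08, limma adjusted p = 5.79e-17), which is 5.91-fold, and the comparison within p53-deficient littermate lines is this second one. The Tsc1-null line stood 1.11 above the Tsc2-null line (limma adjusted p = 1.51e-10). Both comparisons with wild type share the same 3 wild-type arrays.

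In the Tsc1-null time course Myc read 9.37, 9.43 and 9.40 under vehicle, 10.09 and 10.15 at 2 h, 10.12 and 9.99 at 6 h, 10.16 and 10.13 at 12 h, and 10.30 and 10.73 at 24 h. Every treated array lay above every vehicle array of its line, and the 24 h arrays were the furthest apart of the rapamycin pairs. In the Tsc2-null time course Myc read 8.30, 8.27 and 8.29 under vehicle, 9.23 and 9.23 at 2 h, 8.97 and 8.95 at 6 h, 9.08 and 9.0 at 12 h, and 9.07 and 8.81 at 24 h. Here too no treated array overlapped the vehicle arrays, and the highest level was the earliest. The log2 differences from vehicle were 0.72, 0.66, 0.75 and 1.12 in Tsc1-null cells and 0.94, 0.68, 0.75 and 0.65 in Tsc2-null cells at 2, 6, 12 and 24 h, each with an SE of 0.09, and all 8 were called by limma (adjusted p between 4.59e-09 and 5.67e-05). The 4 times of 1 line share its vehicle arrays.

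At 2 h Myc was 1 of the 2 members called in each null line, beside Mnt, when 3.26% of all genes were called in Tsc1-null cells (1.94% as higher) and 2.2% in Tsc2-null cells (1.01% as higher). At 6 h 5 of the 9 genes were called in each line, against 22.5% of all genes in Tsc1-null and 21.3% in Tsc2-null cells. At 12 h 4 were called in each line, against 23.8% and 34.1% of all genes in the Tsc1-null and the Tsc2-null line. At 24 h 4 were called in Tsc1-null cells (29.6% of all genes) and 7 in Tsc2-null cells (35.6% of all genes). The median difference of the 9 genes at 24 h was 0.10 in Tsc1-null and 0.32 in Tsc2-null cells, against -0.01 and 0.00 for all genes. An F test over the 4 times called 5 of the 9 in Tsc1-null cells (38.1% of all genes) and 6 in Tsc2-null cells (40% of all genes).

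The Myc rise was larger in Tsc1-null than in Tsc2-null cells at 24 h, by a difference that rested on single arrays. The interaction, the Tsc1-null difference minus the Tsc2-null one, was 0.47 at 24 h (SE 0.13, limma adjusted p = 0.0133), and at 2, 6 and 12 h it was -0.22, -0.02 and 0.00, with 95% intervals of -0.49 to 0.06, -0.29 to 0.25 and -0.28 to 0.27. Without the second Tsc1-null 24 h array it was 0.26 (adjusted p = 0.155), and without the second Tsc2-null 24 h array 0.34 (adjusted p = 0.106). Among the 9 genes, 0, 1, 2 and 3 interactions were called at 2, 6, 12 and 24 h, where 0.105%, 4.16%, 11.3% and 20.2% of all genes were called. At 2 h 0.0441% of all genes were called higher and 0.0606% lower. The member called at 6 h was lower (2.87% of all genes), and both at 12 h were lower (5.4%, against 5.87% higher).

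After 24 h of rapamycin Myc in Tsc1-null cells was still lower than in wild-type vehicle cells, by -0.33 (SE 0.09, limma adjusted p = 0.00566), but without the first Tsc1-null 24 h array the difference was -0.12 (adjusted p = 0.343). In Tsc2-null cells the remaining difference was -1.91 (limma adjusted p = 9.6e-14), 3.76-fold. In this setting of treated null against untreated wild type, 6 of the 9 genes were called in Tsc1-null cells (38.5% of all genes) and 5 in Tsc2-null cells (41.6% of all genes). Ordered by mean, Myc was highest in wild type (10.85), followed by the Tsc1-null groups at 24 h (10.52), 12 h (10.14), 2 h (10.12), 6 h (10.05) and vehicle (9.40), and by the Tsc2-null groups at 2 h (9.23), 12 h (9.04), 6 h (8.96), 24 h (8.94) and vehicle (8.29). Neighbours overlapped among the Tsc1-null 12, 2 and 6 h groups and between the Tsc2-null 6 and 24 h groups.

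**Figure D2:**
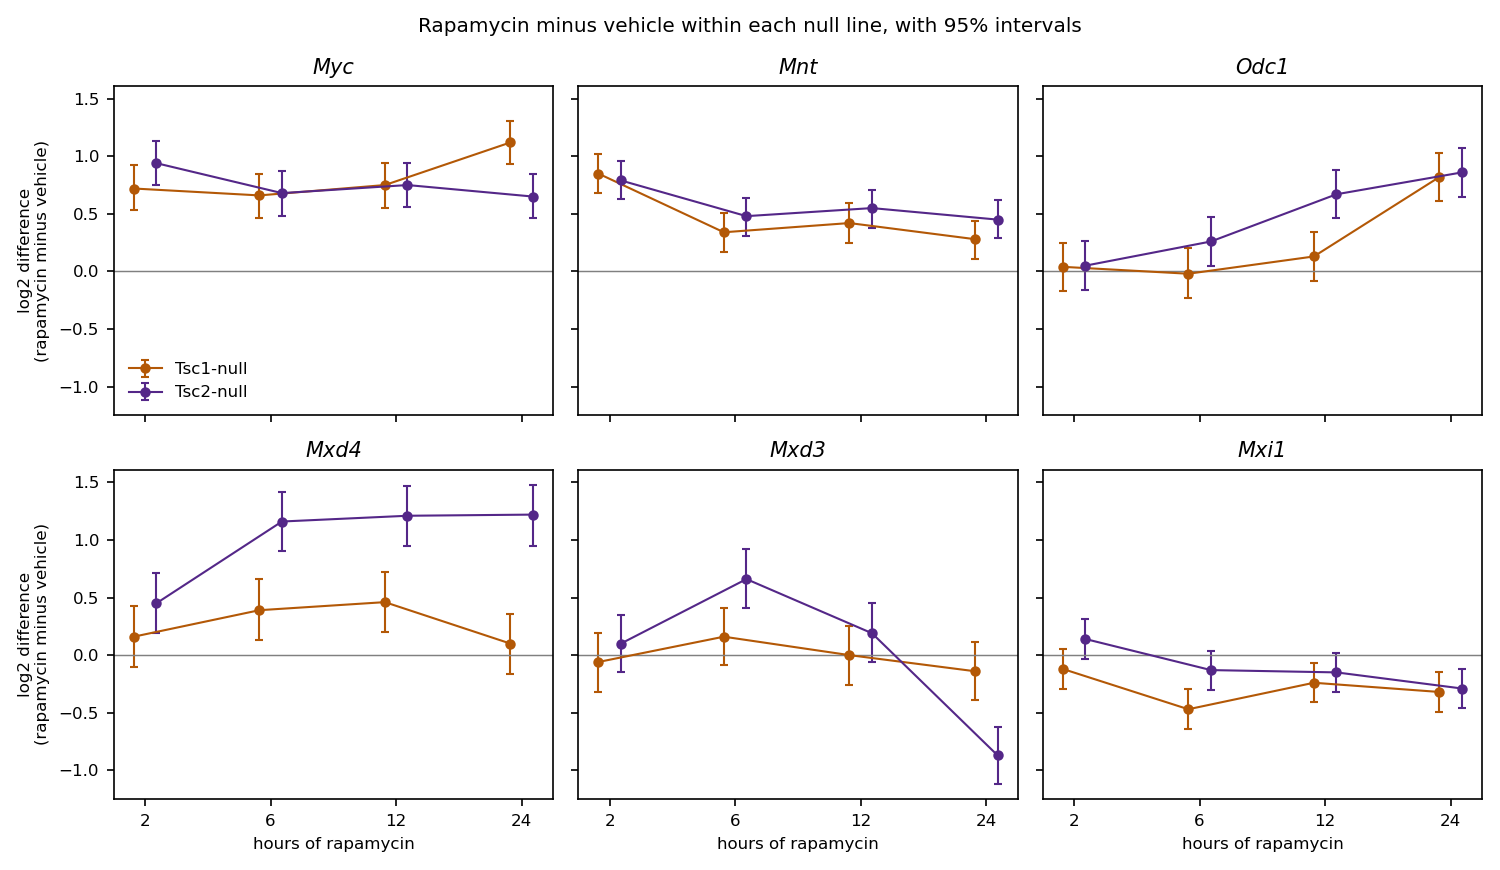
Log2 difference of rapamycin minus vehicle at each time for 6 of the genes, in Tsc1-null and Tsc2-null cells; points are limma estimates and bars 95% intervals. Myc and Mnt stood above 0 at all 4 times in both lines, Odc1 reached 0.82 and 0.86 at 24 h, and Mxd4 reached 0.10 in Tsc1-null and 1.22 in Tsc2-null cells at 24 h.

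Mycn (Entrez 18109, chr12:12936093-12941836) encodes N-Myc, the relative of Myc best known from neural and embryonic tissue. Its probe set with the highest mean, 1425923_at, lay between 7.61 and 8.14 on all 25 arrays and was called in no comparison; the largest difference from vehicle was 0.27, in Tsc1-null cells at 6 h (limma adjusted p = 0.107). The 2 other Mycn probe sets had larger differences and were examined in a fit of all 34945 probe sets that name 1 gene. Probe set 1417155_at read 5.90, 5.49 and 5.53 in Tsc1-null, 7.31, 7.32 and 7.25 in Tsc2-null and 8.53, 8.10 and 8.25 in wild-type vehicle cells. The 3 lines did not overlap, and the order of wild type over both null lines was that of Myc, with the null lines in the opposite order. In the authors' deposited table of log2 ratios, which is 0 throughout for 61.4% of probe sets, the null lines differed by -0.08 (adjusted p = 0.752). Why that table differs here was not tested.

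Under rapamycin 1417155_at climbed in Tsc2-null cells, to 8.01 and 7.84 at 2 h, 9.14 and 9.06 at 6 h, 10.10 and 9.69 at 12 h, and 10.45 and 10.14 at 24 h. From 6 h every Tsc2-null array stood above every wild-type array. In Tsc1-null cells it read 5.03 and 5.50 at 2 h, 5.40 and 5.53 at 6 h, 6.35 and 5.98 at 12 h, and 5.59 and 5.35 at 24 h, all below the wild-type arrays. The differences from vehicle in Tsc2-null cells were 0.63, 1.81, 2.60 and 3.00 at 2, 6, 12 and 24 h. All were called by limma, with an adjusted p of 0.0478 at 2 h and of 4.91e-08, 5.53e-11 and 2.44e-12 later. At these times 1.63%, 17.5%, 30.1% and 32% of probe sets were called. The 2 h call was lost on leaving out any single array of the comparison. It was also lost with arrays centred on their medians and with the authors' deposited table of log2 ratios. The interaction of line and rapamycin was -1.99, -2.08 and -3.17 at 6, 12 and 24 h (limma adjusted p = 3.04e-05, 2.86e-06 and 1.75e-09), where 3.04%, 8.74% and 16.7% of probe sets were called. In Tsc1-null cells the 12 h difference of 0.52 passed the threshold (limma adjusted p = 0.0225), a call lost without any of 3 single arrays (adjusted p of up to 0.312), and the 24 h one was -0.17 and did not.

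The third probe set, 1425922_a_at, moved the same way in Tsc2-null cells, by less. In that line it read 6.12, 6.01 and 6.06 under vehicle, 6.39 and 6.14 at 2 h, 7.06 and 7.08 at 6 h, 7.34 and 7.59 at 12 h, and 7.92 and 7.73 at 24 h. The differences of 1.01, 1.41 and 1.77 at 6, 12 and 24 h were called by limma (adjusted p = 2.36e-06, 6.75e-09 and 9.91e-11), and the treated and vehicle arrays did not overlap at any time. Its interactions of -0.85, -1.37 and -1.41 at those times were called as well (adjusted p = 0.00662, 1.22e-05 and 2.35e-06). In Tsc1-null cells its differences were 0.11, 0.16, 0.04 and 0.36, the last called by limma (adjusted p = 0.0284), a call lost without any of 3 single arrays (adjusted p of up to 0.348) and at a time when 1417155_at gave -0.17. The 3 probe sets of Mycn therefore disagree: 2 of them rose in Tsc2-null cells, the one with the highest mean was not called, and which of them reports the Mycn transcript was not tested.

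**Figure D3:**
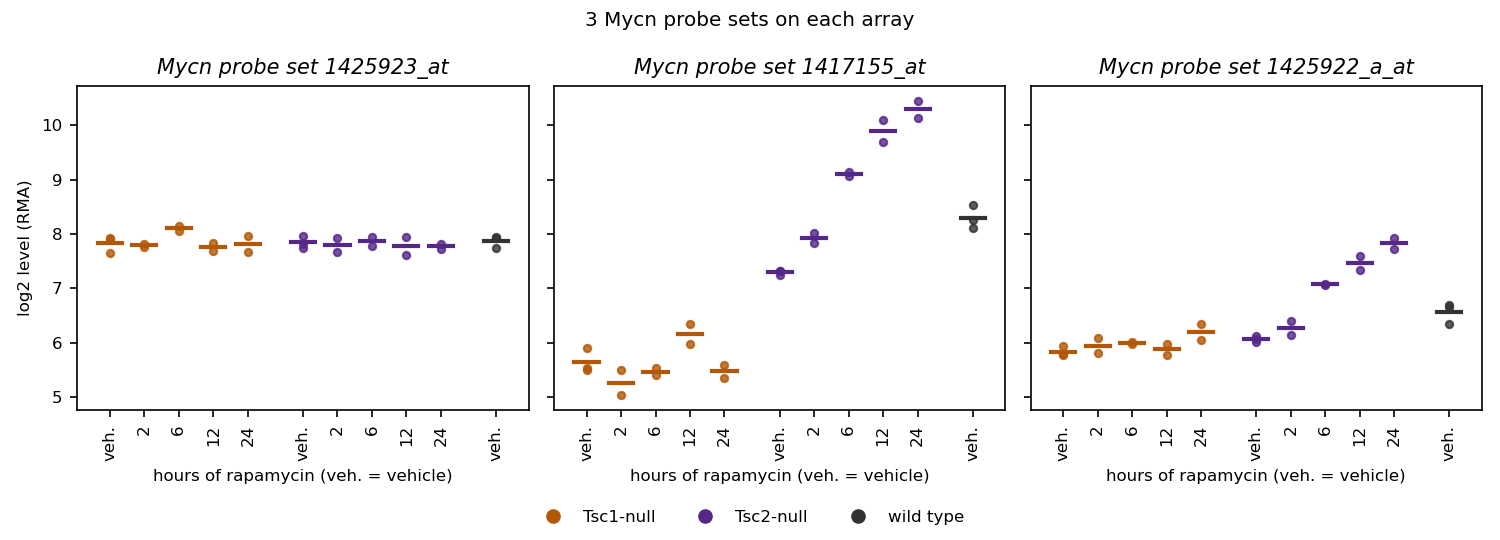
Log2 level (RMA) of the 3 Mycn probe sets on every array, by hours of rapamycin; points are arrays and bars are group means. The probe set 1417155_at reached 10.45 and 10.14 in Tsc2-null cells at 24 h while the probe set 1425923_at stayed between 7.61 and 8.14.

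Max (Entrez 17187, chr12:76937269-76962323, probe set 1423501_at) encodes the partner that the other transcription factors of the network share. Under vehicle it read 8.66, 8.30 and 8.69 in Tsc1-null, 9.24, 8.91 and 9.16 in Tsc2-null and 8.89, 8.91 and 8.94 in wild-type cells. The Tsc1-null arrays were the low ones. Their difference from wild type was -0.36 (SE 0.12, limma adjusted p = 0.0143), which fell to -0.24 (adjusted p = 0.128) without the second Tsc1-null vehicle array, and that from the Tsc2-null line was -0.55 (adjusted p = 0.000383). At 6 h of rapamycin Max read 8.19 and 8.18 in Tsc1-null and 8.75 and 8.61 in Tsc2-null cells, differences of -0.37 and -0.42 that passed the threshold narrowly (limma adjusted p = 0.0463 and 0.0228). Each was lost on leaving out any of 4 of the 5 arrays, with adjusted p of up to 0.182 and 0.174, and no other time was called in either line.

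Mnt (Entrez 17428, chr11:74830806-74845725, probe set 1418192_at) encodes the Max partner that represses in most tissues and is known as an antagonist of Myc. In Tsc1-null cells it read 8.82, 8.86 and 8.75 under vehicle, 9.72 and 9.59 at 2 h, 9.15 and 9.15 at 6 h, 9.22 and 9.24 at 12 h, and 9.06 and 9.12 at 24 h. In Tsc2-null cells it read 9.09, 9.10 and 8.95 under vehicle, 9.84 and 9.84 at 2 h, 9.60 and 9.44 at 6 h, 9.68 and 9.51 at 12 h, and 9.60 and 9.40 at 24 h. Both courses peaked at 2 h, and no treated array overlapped the vehicle arrays of its line. The differences from vehicle were 0.85, 0.34, 0.42 and 0.28 in Tsc1-null and 0.79, 0.48, 0.55 and 0.45 in Tsc2-null cells, and limma called all 8 (adjusted p between 1.41e-06 and 0.0102), the 2 h rises being 1.80-fold and 1.73-fold. No interaction was called, and the 95% interval of the largest, at 24 h, ran from -0.41 to 0.06.

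The Tsc1-null rise of Mnt at 24 h was the weakest of these, with an adjusted p of 0.0889 without the second Tsc1-null 24 h array. Under vehicle Mnt read 8.81, 8.77 and 8.72 in wild-type cells. Tsc2-null cells were higher by 0.28 (SE 0.07, limma adjusted p = 0.00245), and Tsc1-null cells differed by 0.04 and were not called. A dimmer Mnt probe set, 1418193_at with a mean of 5.94, gave 2 h differences of 0.09 and 0.13 in Tsc1-null and Tsc2-null cells, neither called (adjusted p = 0.794 and 0.818), and stood lower in Tsc2-null than in wild-type cells (-0.22, adjusted p = 0.0491). The Mnt rise therefore rests on 1 of 2 probe sets.

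Mxd4 (Entrez 17122, chr5:34176580-34187710, probe set 1434378_a_at) encodes a repressor of the Mxd family found in many tissues. Under vehicle it read 9.87, 9.90 and 10.00 in Tsc1-null, 8.50, 8.45 and 8.32 in Tsc2-null and 9.22, 8.74 and 8.76 in wild-type cells. The lines did not overlap, and the null lines stood on opposite sides of wild type. Against wild type the Tsc1-null difference was 1.02 (SE 0.11, limma adjusted p = 8.83e-08) and the Tsc2-null difference -0.49 (SE 0.11, limma adjusted p = 0.00095). In the Tsc2-null time course it read 8.86 and 8.88 at 2 h, 9.80 and 9.37 at 6 h, 9.58 and 9.69 at 12 h, and 9.74 and 9.53 at 24 h, every array above vehicle. In the Tsc1-null time course it read 10.12 and 10.06 at 2 h, 10.24 and 10.40 at 6 h, 10.43 and 10.34 at 12 h, and 10.02 and 10.02 at 24 h, highest at 6 and 12 h and close to the vehicle arrays at 24 h.

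The Tsc2-null differences of Mxd4 were 0.45 at 2 h (SE 0.13, limma adjusted p = 0.0679), 1.16 at 6 h (6.01e-07), 1.21 at 12 h (1.04e-07) and 1.22 at 24 h (6.3e-08), the last 2.32-fold. The Tsc1-null differences were 0.16, 0.39, 0.46 and 0.10, and limma called those at 6 and 12 h (adjusted p = 0.0278 and 0.00904). The 6 h call was lost without any of 4 arrays, and the 12 h call without the first 12 h array (adjusted p = 0.0871). The interaction was -0.77, -0.75 and -1.12 at 6, 12 and 24 h (SE 0.18 each, limma adjusted p = 0.0163, 0.00685 and 7.17e-05). At 6 h it was -0.55 (adjusted p = 0.161) without the first Tsc2-null array and -0.69 (adjusted p = 0.0967) without the first Tsc1-null array of that time. Another probe set, 1434379_at, gave called Tsc2-null differences of 1.10, 1.04 and 0.96 and interactions of -0.64, -0.57 and -0.87, whereas the dim probe set 1422575_at was called in Tsc1-null cells (0.40, 0.40 and 0.28) and at no time in Tsc2-null cells.

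Mxd3 (Entrez 17121, chr13:55325170-55329900, probe set 1422970_at) encodes the Mxd family member known for expression in dividing cells, at the S phase. Under vehicle it read 7.16, 7.02 and 7.31 in Tsc1-null, 8.25, 8.02 and 8.31 in Tsc2-null and 7.30, 6.77 and 7.22 in wild-type cells. The Tsc2-null line stood alone, higher than wild type by 1.10 (SE 0.11, limma adjusted p = 1.24e-08), and the Tsc1-null difference of 0.07 was not called. Under rapamycin Tsc2-null cells read 8.36 and 8.24 at 2 h, 8.88 and 8.84 at 6 h, 8.36 and 8.42 at 12 h, and 7.33 and 7.33 at 24 h. Mxd3 thus rose at 6 h (0.66, limma adjusted p = 0.000311) and fell at 24 h (-0.87, adjusted p = 4.26e-06) to near the highest wild-type array. Tsc1-null arrays stayed between 6.98 and 7.43 and none of their differences was called. The 24 h interaction was 0.73 (SE 0.17, limma adjusted p = 0.00351), and the probe set 1448878_at moved the same way, with 0.40 at 6 h, -0.54 at 24 h and an interaction of 0.44 (adjusted p = 0.0184). With the authors' deposited table of log2 ratios the vehicle difference of Tsc2-null cells from wild type was 0.00 for Mxd3. The 24 h fall and the 24 h interaction were 0.00 there as well. That table is 0 throughout for 61.4% of probe sets, and for Mxd3 it gave a 6 h interaction of -0.27 (limma adjusted p = 0.00164). Whether its 0 values were measured or filled in was not tested.

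Mxi1 (Entrez 17859, chr19:53310128-53373293, probe set 1450376_at) encodes the Mxd family member also known as Mxd2. Under vehicle it read 9.58, 9.61 and 9.57 in Tsc1-null, 9.83, 9.86 and 9.86 in Tsc2-null and 9.41, 9.25 and 9.22 in wild-type cells. Both null lines were higher than wild type with no overlap, by 0.29 (SE 0.07, limma adjusted p = 0.00216) and 0.55 (SE 0.07, limma adjusted p = 1.09e-06) in Tsc1-null and Tsc2-null cells. Rapamycin lowered it: in Tsc1-null cells the differences were -0.12, -0.47, -0.24 and -0.32, called from 6 h on (limma adjusted p = 0.000265, 0.0343 and 0.00421), and in Tsc2-null cells 0.14, -0.13, -0.15 and -0.29, called at 24 h (adjusted p = 0.00724). The Tsc1-null 12 h call was lost on leaving out any single array of the comparison, and the 24 h calls narrowly so without the first Tsc1-null 24 h array (adjusted p = 0.0513) and the second Tsc2-null one (adjusted p = 0.0508). No interaction was called for Mxi1. At 24 h it read 9.24 and 9.30 in Tsc1-null and 9.57 and 9.55 in Tsc2-null cells. The probe set 1425732_a_at fell likewise, by called differences of -0.43, -0.30 and -0.48 at 6, 12 and 24 h in Tsc1-null cells and of -0.34 and -0.33 at 12 and 24 h in Tsc2-null cells.

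Mxd1 (Entrez 17119, chr6:86647044-86669234, probe set 1434830_at) encodes the founding Mxd repressor, known for its rise in differentiating cells. Its differences were small. Under vehicle it read 8.03, 7.80 and 7.90 in Tsc1-null, 7.51, 7.55 and 7.55 in Tsc2-null and 7.85, 7.55 and 7.59 in wild-type cells. The Tsc1-null line was higher than the Tsc2-null line by 0.37 (limma adjusted p = 0.00174) and than wild type by 0.24 (adjusted p = 0.0345), a call lost on leaving out any of 4 of 6 arrays. Rapamycin gave 1 call, a rise of 0.32 in Tsc2-null cells at 24 h (arrays 7.94 and 7.79, limma adjusted p = 0.0145), which was lost without the first of those arrays, with the mean of all Mxd1 probe sets (0.17, adjusted p = 0.098) and with the authors' deposited table of log2 ratios (0.00). That table also gave 0.01 for both vehicle differences of the Tsc1-null line. Whether the 0 values in it were measured or filled in was not tested. The probe set 1455104_at had another course, with called rises in Tsc2-null cells at 6 and 12 h (0.40 and 0.34, limma adjusted p = 0.00776 and 0.014) and 0.16 at 24 h (adjusted p = 0.281).

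Odc1 (Entrez 18263, chr12:17544808-17551502, probe set 1438761_a_at) stood below wild type under vehicle, 3.33-fold in Tsc1-null and 2.84-fold in Tsc2-null cells. It read 9.50, 9.57 and 9.67 in Tsc1-null, 9.78, 9.82 and 9.82 in Tsc2-null and 11.23, 11.33 and 11.38 in wild-type cells. The wild-type arrays stood well above both null lines. The log2 differences were -1.74 (limma adjusted p = 3.31e-13) and -1.51 (limma adjusted p = 3.37e-12) in Tsc1-null and Tsc2-null cells, each with an SE of 0.09. The null lines differed by -0.23, Tsc1-null below Tsc2-null (adjusted p = 0.045), a call lost on leaving out any of 5 of 6 arrays.

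Rapamycin raised Odc1 later than Myc. In Tsc1-null cells it read 9.63 and 9.61 at 2 h, 9.54 and 9.59 at 6 h, 9.72 and 9.69 at 12 h, and 10.15 and 10.65 at 24 h. The 12 h arrays stood just above vehicle and the 24 h arrays well above it, and the 24 h pair was wider than any other rapamycin pair of Odc1. In Tsc2-null cells it read 9.80 and 9.93 at 2 h, 10.03 and 10.11 at 6 h, 10.57 and 10.39 at 12 h, and 10.64 and 10.70 at 24 h, a step up at each time from 6 h. The called differences from vehicle were 0.82 at 24 h in Tsc1-null cells (SE 0.10, limma adjusted p = 1.43e-06), and 0.67 at 12 h and 0.86 at 24 h in Tsc2-null cells (SE 0.10 each, limma adjusted p = 1.58e-05 and 4.4e-07). The Tsc2-null 6 h difference of 0.26 missed the threshold (adjusted p = 0.0781). It passed with quantile normalization and with the dimmest 40% of genes left out (limma adjusted p = 0.033 and 0.0428). It also passed with eBayes trend and robust settings and with the authors' table of log2 ratios (limma adjusted p = 0.0356 and 0.0432).

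The time of the Odc1 rise differed between the lines at 12 h, where the interaction was -0.54 (SE 0.14, limma adjusted p = 0.0151), and at 24 h it was -0.04, with a 95% interval of -0.34 to 0.26. The 12 h call was lost without the first Tsc2-null array of that time (-0.46, adjusted p = 0.0902), without the second Tsc1-null one (-0.53, adjusted p = 0.0607) and with the mean of all Odc1 probe sets (-0.31, adjusted p = 0.113). After 24 h of rapamycin Odc1 was still below wild-type vehicle, by -0.92 in Tsc1-null and -0.65 in Tsc2-null cells (limma adjusted p = 1.27e-07 and 1.42e-05). The probe set 1437711_x_at gave the same calls at 24 h, 1.16 in Tsc1-null and 0.79 in Tsc2-null cells, while 1427364_a_at gave 0.14 (adjusted p = 0.403) in Tsc1-null and 0.47 (adjusted p = 0.000869) in Tsc2-null cells. Across the 11 group means Odc1 and Myc correlated at r = 0.25, and across the 10 null groups at r = -0.23, as a description of points that share lines and arrays.

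The other measured genes of polyamine metabolism did not move as 1 block. Of 21 listed genes 18 were measured, without Amd1, Sms and Paox. Under vehicle 4 stood higher and 7 lower in the Tsc1-null line compared with wild type (21.3% and 20.8% of all genes), and 3 higher and 6 lower in the Tsc2-null line (23.6% and 21.4% of all genes). Srm, spermidine synthase, was below wild type in Tsc2-null cells (-0.79, limma adjusted p = 4.77e-10), and Sat1, which acetylates polyamines for breakdown and export, was higher in both null lines, by 0.82 in Tsc1-null and 0.69 in Tsc2-null cells. None of the 18 was called at 2 h in either line. At 24 h 4 rose and 6 fell in Tsc1-null cells (11.6% and 18% of all genes) and 6 rose and 6 fell in Tsc2-null cells (17.5% and 18.1% of all genes), with list medians of 0.02 and -0.02 against -0.01 and 0.00 for all genes.

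Srm fell under rapamycin, at 6 h by -0.75 in Tsc1-null and -1.22 in Tsc2-null cells, at 12 h by -0.60 in Tsc1-null and -1.34 in Tsc2-null cells, and at 24 h by -0.51 in Tsc1-null and -0.75 in Tsc2-null cells. The interaction for Srm at 12 h was 0.74 (limma adjusted p = 3.43e-05). Azin1, the antizyme inhibitor that protects ornithine decarboxylase from degradation, fell at 6 h by -0.51 in Tsc1-null and -0.68 in Tsc2-null cells. Oaz2, an antizyme that promotes its degradation, rose at 12 h by 0.37 in Tsc1-null and 0.56 in Tsc2-null cells. Sat1 fell in Tsc1-null cells at 24 h by -1.10, and Slc3a2, a subunit of amino acid transporters, fell at 24 h by -0.55 in Tsc1-null and -1.21 in Tsc2-null cells.

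From 6 h of rapamycin most genes known as induced by Myc fell while Myc itself was raised. Of 30 listed, 29 were measured. At 2 h 3 fell and 1 rose in Tsc1-null cells (1.32% of all genes fell), and 2 fell and 1 rose in Tsc2-null cells (1.19% of all genes fell). At 6 h 17 fell and 1 rose in Tsc1-null cells (13% fell), and 18 fell and 1 rose in Tsc2-null cells (9.7% fell). At 12 h 21 fell and 2 rose in Tsc1-null cells (11.7% fell), and 24 fell and 1 rose in Tsc2-null cells (17.7% fell). At 24 h 19 fell and 2 rose in Tsc1-null cells (18% fell), and 24 fell and 1 rose in Tsc2-null cells (18.1% fell). Of all genes, 1.94%, 9.5%, 12.1% and 11.6% rose in Tsc1-null cells at 2, 6, 12 and 24 h. In Tsc2-null cells 1.01%, 11.6%, 16.5% and 17.5% of all genes rose at these times. The median difference of the list at 12 h was -0.40 in Tsc1-null and -0.58 in Tsc2-null cells, against -0.01 and -0.06 for all genes. The list holds many genes of ribosome production and of metabolism that are also known to follow mTORC1, and it was drawn up with earlier results of these data known.

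The gene that rose with Myc was Tfap4, a transcription factor known as a direct Myc target. Its differences were 0.50, 0.34, 0.53 and 0.94 in Tsc1-null and 0.44, 0.44, 0.51 and 0.59 in Tsc2-null cells at 2, 6, 12 and 24 h, all called by limma (adjusted p between 2.79e-07 and 0.023). Like Myc, it was lower in both null lines than in wild type under vehicle, by -1.56 in Tsc1-null and -1.42 in Tsc2-null cells. Npm1, a nucleolar protein gene, also rose in Tsc1-null cells, by 0.39 at 12 h and 0.52 at 24 h. The earliest falls included Polr3g, a subunit of RNA polymerase III, and Cdc25a, a cell cycle phosphatase, at 2 h by -0.39 and -0.38 in Tsc1-null and by -0.53 and -0.47 in Tsc2-null cells.

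At 6 h the nucleolar gene Gnl3 fell by -0.95 in Tsc1-null and -1.03 in Tsc2-null cells, beside Srm. Tfrc, the transferrin receptor, fell by -1.28 at 12 h and -1.18 at 24 h in Tsc1-null cells, and by -1.43 and -1.76 in Tsc2-null cells. Shmt2, the mitochondrial serine hydroxymethyltransferase, fell by -1.37 at 12 h in Tsc1-null and by -1.70 at 24 h in Tsc2-null cells. Against wild type under vehicle the same list was split, with 9 higher and 15 lower in Tsc1-null cells (21.3% and 20.8% of all genes) and 8 higher and 12 lower in Tsc2-null cells (23.6% and 21.4% of all genes). After 24 h of rapamycin Tsc1-null cells had 1 higher and 21 lower compared with wild-type vehicle cells (16.8% and 21.7% of all genes), and Tsc2-null cells 2 higher and 20 lower (20.8% of all genes each way), with medians of -0.62 and -0.61 against -0.02 for all genes in both.

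**Figure D4:**
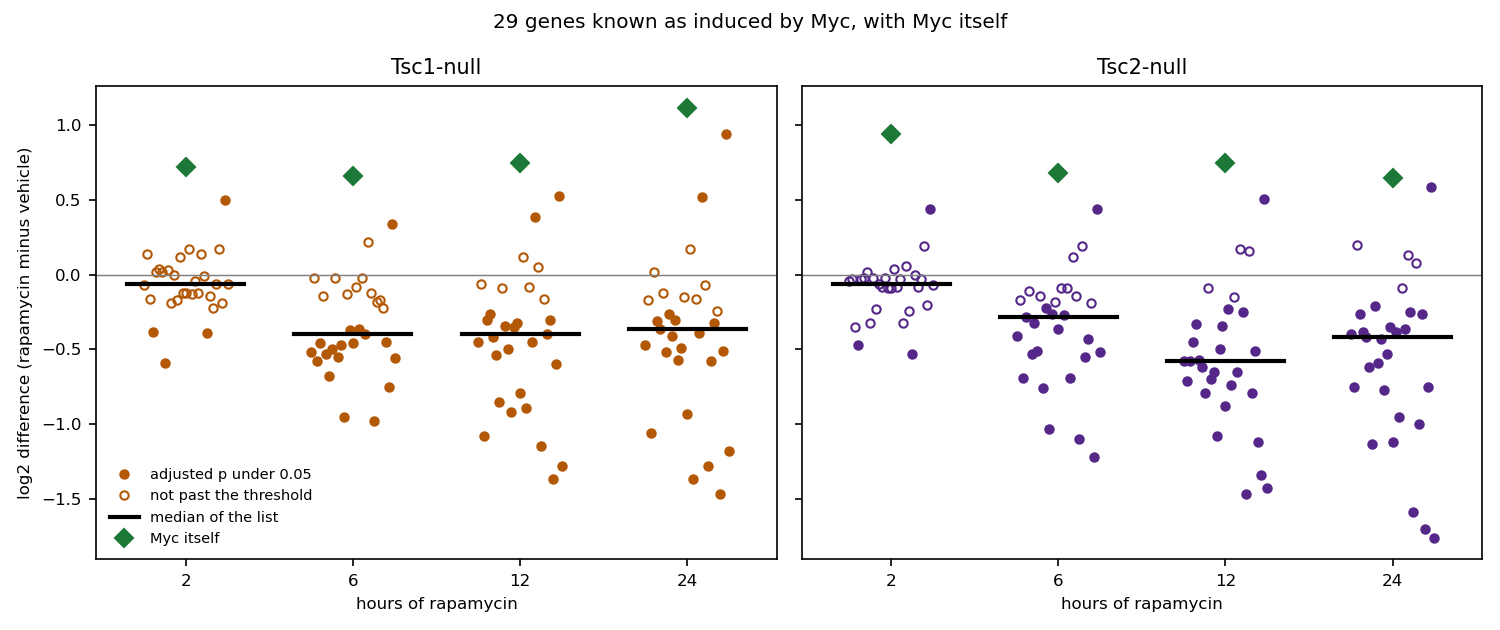
Log2 difference of rapamycin minus vehicle for the 29 measured genes known as induced by Myc, in Tsc1-null (left) and Tsc2-null (right) cells at 2, 6, 12 and 24 h; filled points passed limma's threshold, open points did not, black bars are medians and diamonds are Myc. Myc lay between 0.65 and 1.12 while the medians at 12 h were -0.40 in Tsc1-null and -0.58 in Tsc2-null cells.

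Genes known as repressed by Myc were mixed. Of the 12 measured, 3 rose and 4 fell in Tsc1-null cells at 24 h (11.6% and 18% of all genes), and 5 rose and 4 fell in Tsc2-null cells (17.5% and 18.1% of all genes). Thbs1, which encodes the matrix protein thrombospondin 1, rose at every time, by 0.68, 0.85, 1.44 and 1.45 in Tsc1-null and by 0.72, 1.34, 1.49 and 1.30 in Tsc2-null cells. Cdkn1a, which encodes the cell cycle inhibitor p21, fell by -0.51, -0.74, -1.31 and -1.32 in Tsc1-null cells, which keep p53, and by -1.13, -1.82 and -2.06 from 6 h in Tsc2-null cells, which lack it. Cdkn2b, encoding the inhibitor p15, rose in Tsc2-null cells by 0.55, 0.71 and 0.92 at 6, 12 and 24 h, and its interaction at 24 h was -0.93 (limma adjusted p = 2.61e-07).

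Among 5 further partners of the network, Mlx, the Max-like protein that pairs with Mondo factors and with Mnt, stood out. It was higher than in wild type by 1.23 in Tsc1-null and 1.43 in Tsc2-null vehicle cells. Under rapamycin it fell by -0.60, -0.94, -1.01 and -1.23 in Tsc1-null and by -0.55, -0.90, -1.16 and -1.09 in Tsc2-null cells, all 8 called by limma (adjusted p between 2.24e-08 and 0.00916). Mlxip, encoding a Mondo factor, rose at 12 h by 0.33 in Tsc1-null and 0.31 in Tsc2-null cells. At 24 h 1 of the 5 was called in Tsc1-null cells, a fall (18% of all genes), and 3 were called in Tsc2-null cells, 2 rises (17.5% of all genes) and 1 fall (18.1%).

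Of 7 measured genes for the corepressors that Mxd proteins and Mnt recruit, 3 fell and 0 rose in Tsc1-null cells at 24 h (18% and 11.6% of all genes), and 4 fell and 0 rose in Tsc2-null cells (18.1% and 17.5% of all genes). Sap30, a subunit of the Sin3 complex, was higher than in wild type by 0.85 in Tsc1-null and 1.25 in Tsc2-null cells, and under rapamycin it fell by -0.60, -1.11, -1.13 and -1.14 in Tsc1-null and by -0.34, -1.22, -1.37 and -1.34 in Tsc2-null cells. Sin3b, the scaffold of that complex, stood on opposite sides of wild type, at 0.57 in Tsc1-null and -0.64 in Tsc2-null cells, both called by limma. Of 14 coactivator genes, 2 rose and 4 fell at 24 h in each line. Of all genes, 11.6% rose and 18% fell in Tsc1-null cells, and 17.5% rose and 18.1% fell in Tsc2-null cells. The helicase gene Ruvbl2 fell by -0.76 in Tsc1-null and -0.87 in Tsc2-null cells at that time.

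Of 12 measured genes that control the stability of Myc protein, which was not measured here, 1 rose and 4 fell at 24 h in Tsc1-null cells (11.6% and 18% of all genes), and 1 rose and 6 fell in Tsc2-null cells (17.5% and 18.1% of all genes). The gene that rose in both was Fbxo32, an F-box ubiquitin ligase subunit, by 1.50, 0.76, 1.08 and 0.86 in Tsc1-null and by 1.52, 1.79, 2.26 and 2.30 in Tsc2-null cells at 2, 6, 12 and 24 h. Under vehicle it was lower in Tsc2-null than in wild-type cells by -3.21 (limma adjusted p = 8.25e-15), and its interaction at 24 h was -1.44 (adjusted p = 4.5e-05). Skp2, another F-box subunit that acts on Myc, fell at every time, by -0.62, -1.04, -0.77 and -0.46 in Tsc1-null and by -0.43, -0.52, -0.91 and -1.25 in Tsc2-null cells.

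The genes whose pattern over the 11 group means was most like that of Myc, among 4991 genes with group means spanning at least 1 on the log2 scale, were Sirt1 (r = 0.956), Fam3c (r = 0.953), Ier5 (r = 0.951), Col16a1 (r = 0.945) and Pik3cb (r = 0.943). Sirt1 averaged 8.44 in Tsc1-null and 7.37 in Tsc2-null cells at 24 h, against 7.66 and 6.96 under vehicle in the same lines and 8.54 in wild type. Most like Odc1 were Angptl7 (r = 0.967), Trio (r = 0.966), Peak1 (r = 0.965), Msln (r = 0.961) and Plscr2 (r = 0.960). Trio averaged 10.24 in Tsc1-null and 10.46 in Tsc2-null cells at 24 h, against 9.19 and 9.15 under vehicle and 11.47 in wild type. These are Pearson correlations over points that share lines, and they describe likeness of pattern alone.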

How the data were processed

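RNA of 25 plates was hybridized to Affymetrix mouse arrays, a separate array for each. The authors deposited log2 expression values per probe set, which the submitters' processing notes trace to RMA, with limma named and no versions. The authors' second table gives log2 ratios against the wild-type vehicle median, is 0 throughout for 61.4% of probe sets, and served as an alternative over 9522 genes. Whether its 0 values were measured or filled in was not tested, so a call lost with it is a weak check. For Tsc1-null cells the 24 h and 12 h samples are described once as 14 h and 11 h, and their titles and time labels were followed.

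Of 45101 probe sets, 34945 name 1 gene in the platform annotation. Each of 18161 genes was represented by its probe set of highest mean level. limma 3.58.1 in R 4.3.3 fitted the 11 group means to all 25 arrays (14 residual and 7.08 prior degrees of freedom) without a replicate block, with two-sided moderated tests, F tests over the 4 times and Benjamini-Hochberg adjustment over all genes within a comparison at a threshold of 0.05. The fit was tested on simulated data. All probe sets of the members were also fitted among the 34945. Replicate numbers were taken not to pair plates. The members, lists, named genes and tests were chosen with earlier results of these data known. Named list genes were the 2 with the smallest p in each direction per comparison, and the 5 patterns most like Myc and Odc1 were ranked by Pearson r. Alternatives were quantile normalization, centring on array medians, 64 added to linear values, no genes among the dimmest 40%, averaging a gene's probe sets, eBayes with trend and robust settings, the ratio table, a replicate block and leaving out each array. Promoter windows came from RefSeq (GRCm38.p6). Some of the listed genes were not analysed here.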

Additional observations from a re-analysis of the deposited data

Results flagged for a closer look

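The difference between the rapamycin response of Tsc1-null cells and that of Tsc2-null cells was itself tested as an interaction (Tsc1-null minus Tsc2-null), and the following passed limma's threshold. Mxd4 gave -0.77 at 6 h, -0.75 at 12 h and -1.12 at 24 h, the rise being larger in Tsc2-null cells. Odc1 gave -0.54 at 12 h, where its rise was called in Tsc2-null cells and not in Tsc1-null cells. Mxd3 gave 0.73 at 24 h, when it fell in Tsc2-null cells. Myc gave 0.47 at 24 h, the rise being larger in Tsc1-null cells. The Mxd4 call at 6 h, the Odc1 call at 12 h and this Myc call were each lost without certain single arrays, as given above. For Mycn the probe set 1417155_at gave -1.99, -2.08 and -3.17 at 6, 12 and 24 h, and the probe set 1425922_a_at gave -0.85, -1.37 and -1.41, while the probe set 1425923_at gave no call at any time. The null lines also differ in p53 and immortalization, which cannot be told apart from the TSC gene lost.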

How the results depend on the processing

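Over 171 member results, 2538 alternative values were computed: 2423 kept their side of the threshold, 69 lost a call, 38 gained one and 8 reversed. Among the 2423 were 106 values that changed sign but were called in neither setting. Of the reversals, 6 were Mycn with the mean of all its probe sets, at 1.31 (Tsc2-null, 12 h) and 1.57 (24 h), with interactions of -0.86, -1.15 and -1.51 at 6, 12 and 24 h, and 1.05 for Tsc2-null cells at 24 h against wild type. With the ratio table Mycn gave 0.14 (Tsc2-null, 12 h) and the Mxd1 interaction at 24 h gave 0.24. The number of members called moved to 4 with the ratio table for Tsc1-null against Tsc2-null vehicle, and to 2 for the 6 h interaction with 64 added, with the mean of all probe sets and with the ratio table. Leaving out single arrays gave 3 to 4 members at 6 h and 2 to 3 at 12 h in Tsc1-null cells, and 0 to 2 and 1 to 2 for the 6 h and 12 h interactions. Genes called in all moved by over 1.5 times for Tsc1-null cells at 2 h (592, against 910 with quantile normalization, 378 with the replicate block and 134 at the lowest without 1 array), Tsc2-null cells at 2 h (400, against 607 with quantile normalization and 152 at the lowest), Tsc1-null cells at 6 h (4094, against 2085) and the interactions at 2 h (19, against 95 with the ratio table, 31 with trend and 5 at the lowest) and 6 h (755, against 260 to 1145). Centring gave 27.2% of calls higher against 42.1% for Tsc1-null cells at 6 h, and quantile normalization 44.3% against 30.9% for the 6 h interaction. With the replicate block Max lost its Tsc1-null 6 h call (-0.33, adjusted p = 0.0657), Mycn probe set 1417155_at its Tsc2-null 2 h call (0.60, adjusted p = 0.062) and Mxd3 gained one for Tsc2-null cells at 24 h against wild type (0.30, adjusted p = 0.0444); no other member call changed. Deviations from group means correlated at -0.41 to 0.55 (median -0.06) for same-numbered plates and at -0.55 to 0.41 (median 0.03) for others. In groups of 2 arrays these deviations mirror each other, so the correlations cannot settle whether the numbers pair plates. The ratio table cut the Myc 24 h interaction to 0.12 (adjusted p = 0.648). The Mycn probe set alternatives were chosen after seeing the data. The causes were not tested.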
